A study of Mus musculus with 6 samples.

Results

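The genes described here are 8 interferon-induced GTPases, namely the guanylate-binding proteins Gbp2, Gbp3, Gbp5 and Gbp7 and the immunity-related GTPases Iigp1, Irgm1, Irgm2 and Igtp. They were taken by symbol from the gene rows of the count matrices, and all 8 were found among 32285 genes. Their RNA was counted in CD45+ live cells sorted from the ventral midbrain of male Line 61 mice, which carry human α-Syn under the neuronal Thy1 promoter on the X chromosome and were 12 to 15 weeks old at injection. All mice received a bilateral injection into the striatum, of PBS, of α-Syn monomer or of preformed α-Syn fibrils (PFF), and cells were collected 6 weeks later. PFF mice were gavaged daily from week 2 for 4 weeks with DMSO vehicle (PFF + VH) or with AZD1480, an inhibitor of JAK1 and JAK2, at 25 mg/kg (PFF + AZD1480). Each condition is 1 library of single-cell RNA, made from 3 to 5 pooled midbrains per sample, so library and condition cannot be told apart. Hashtags, antibody-linked barcodes that mark a sample of origin, were found in both PFF libraries, 4 in PFF + VH and 5 in PFF + AZD1480. A hashtag stands for 1 replicate here, although no source says so outright, and p-values measure at most the spread between hashtags. PBS and monomer cells carry no hashtag and entered no test.

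GBP and IRG proteins are large GTPases that cells make in response to interferon, above all IFN-γ. IFN-γ binds the receptor chains Ifngr1 and Ifngr2, which activate JAK1 and JAK2. The transcription factors switched on by these kinases bind DNA at a GAS element, while those used by type I interferon, with STAT2 and IRF9 among them, bind an ISRE. The GTPases assemble on the membranes of vacuoles that hold intracellular pathogens. Irgm1, Irgm2 and Igtp (Irgm3) are regulatory IRG proteins, which keep effector IRG proteins such as Iigp1 (Irga6) from acting on the cell's own membranes. Gbp5 has also been tied to activation of the NLRP3 inflammasome.

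The filters left 14617 (PBS), 15031 (monomer), 34436 (PFF + VH) and 13021 (PFF + AZD1480) cells. The PFF + VH library stands apart, with a median of 2306 UMIs per cell against 6616 to 7028 in the others and a single hashtag in 53.27% of its cells against 80.09% in PFF + AZD1480 by the caller HTODemux, and 19.79% against 79.85% by MULTIseqDemux. Between 51 and 163 cell barcodes were shared by any 2 libraries. Cells were put in a class when its list of marker genes, none of them described here, had at least 3 markers with a UMI and over 0.5 of the cell's marker UMIs. A class cut in this way is a range of marker shares: among PFF + VH cells, 326 of 31617 microglia (MG) and 59 of 219 border-associated macrophage-like cells (BAM) had a share between 0.5 and 0.6. MG made up 91.6% to 92.0% of the cells of every library, and their median number of MG marker UMIs was 22 in PFF + VH and 63 to 79 in the others, with medians of 0 for BAM, monocyte-like (Mono), T-like and NK-like markers, 0 to 1 for dendritic-like markers and 0 to 2 for B-like markers. BAM also carried MG markers, with a median of 6 to 10 MG marker UMIs per cell, and the part of these in BAM values was not tested. BAM, Mono and dendritic-like cells (DC) were summed as MM, and T-like and NK-like cells as TNK.

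The 4 GBP genes lie on the forward strand of chromosome 3 (build mm10), Gbp5 at 142493978 to 142522344, Gbp7 at 142530342 to 142550149, Gbp3 at 142560026 to 142573209 and Gbp2 at 142620602 to 142638008. Irgm1 lies on the reverse strand of chromosome 11 at 48861968 to 48871683. The annotated spans of Igtp (58199556 to 58207591) and Irgm2 (58199618 to 58222782) overlap on the forward strand of chromosome 11. Their 3' ends differ, and the promoter window of Irgm2 used below lies past the end of Igtp. How reads from the shared stretch were counted was not measured. Gbp7 overlaps a processed pseudogene, Gm43802, and Gbp2 a microRNA gene on the opposite strand. RefSeq promoters (build GRCm38.p6, 250 bases before to 50 after the RefSeq start of a gene) were taken for 7 of the 8 genes, all but Iigp1. They were searched on both strands for an ISRE core, GAAA repeated after any 2 bases (TTTC repeated in the same way on the other strand), and for a GAS core, TTCNNNGAA. All 7 held the ISRE core, which 3.44% of 32851 promoters of this length hold, and 4 held the GAS core, which 8.3% of them hold. At least 1 of these motifs stood in 11.3% of all promoters. Gbp3 has a second listed start with neither motif. A match of letters is a description and not a shown binding site.

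The 5 promoters below are shown because they cover both families and both motifs, with each match in capitals. Gbp5 is chr3:142496684-142496983 (+ strand), Gbp7 chr3:142530086-142530385 (+ strand), Irgm1 chr11:48871371-48871670 (- strand), Irgm2 chr11:58214727-58215026 (+ strand) and Igtp chr11:58199306-58199605 (+ strand).
Gbp5: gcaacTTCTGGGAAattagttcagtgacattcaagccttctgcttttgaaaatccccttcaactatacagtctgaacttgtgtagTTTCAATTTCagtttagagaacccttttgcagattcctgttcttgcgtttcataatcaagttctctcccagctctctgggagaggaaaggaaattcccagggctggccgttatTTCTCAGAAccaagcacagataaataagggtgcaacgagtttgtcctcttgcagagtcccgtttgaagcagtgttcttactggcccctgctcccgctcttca
Gbp7: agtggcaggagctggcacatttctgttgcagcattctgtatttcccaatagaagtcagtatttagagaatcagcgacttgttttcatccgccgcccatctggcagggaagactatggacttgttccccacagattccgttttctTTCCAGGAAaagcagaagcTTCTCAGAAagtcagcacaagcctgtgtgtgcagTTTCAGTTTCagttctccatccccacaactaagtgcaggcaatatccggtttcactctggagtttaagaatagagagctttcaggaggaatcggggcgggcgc
Irgm1: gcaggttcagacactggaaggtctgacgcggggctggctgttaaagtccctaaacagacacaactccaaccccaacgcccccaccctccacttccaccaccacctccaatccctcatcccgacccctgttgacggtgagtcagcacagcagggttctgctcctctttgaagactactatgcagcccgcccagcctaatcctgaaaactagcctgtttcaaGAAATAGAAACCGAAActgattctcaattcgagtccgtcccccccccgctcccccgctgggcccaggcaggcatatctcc
Irgm2: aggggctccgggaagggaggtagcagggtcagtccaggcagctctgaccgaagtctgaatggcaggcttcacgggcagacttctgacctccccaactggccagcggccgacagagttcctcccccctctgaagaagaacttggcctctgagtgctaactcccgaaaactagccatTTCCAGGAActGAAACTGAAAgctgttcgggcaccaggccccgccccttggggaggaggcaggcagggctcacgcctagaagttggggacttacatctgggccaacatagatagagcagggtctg
Igtp: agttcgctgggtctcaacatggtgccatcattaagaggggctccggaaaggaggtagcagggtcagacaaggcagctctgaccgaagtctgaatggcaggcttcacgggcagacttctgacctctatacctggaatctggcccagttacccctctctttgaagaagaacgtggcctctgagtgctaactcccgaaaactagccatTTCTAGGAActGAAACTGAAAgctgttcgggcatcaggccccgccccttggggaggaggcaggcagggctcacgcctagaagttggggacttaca
Irgm1 has a pair of overlapping ISRE cores and no GAS core. Gbp7 has its ISRE core at position -53 and GAS cores at -106 and -87, while in Gbp5 the ISRE core lies further out, at -165, with GAS cores at -245 and -52 (positions count from the RefSeq start of each window, taken as 0, which need not be the edge of the gene spans given above: the windows of Gbp5, Irgm1 and Irgm2 lie wholly inside those spans). Irgm2 and Igtp each carry a GAS core just before an ISRE core, and their promoters share an unbroken run of 61 bases. Aligned on that run, 184 of 270 bases (68.1%) were identical.

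MG of AZD1480-treated mice held less RNA of 6 of the 8 GTPases than MG of vehicle-treated mice. Counts of all MG with the same hashtag were summed and given as CPM, counts scaled to 1e6 UMIs of these cells. The largest change was in Iigp1, the effector IRG, which was 17.0-fold lower, but from few UMIs. The smallest that passed the test was in Igtp, 1.30-fold lower. Irgm1, Gbp7, Gbp5 and Gbp2 were 1.72-, 1.49-, 1.48- and 1.45-fold lower. In the fit over 13725 genes, 14.6% of all genes passed as lower and 12% as higher, and none of the 8 passed as higher in edgeR or DESeq2, while 5302 genes had an unadjusted p under 0.05 in either direction. The median log2 fold change of the 8 was -0.55, against -0.002 over all genes. Tests are the quasi-likelihood test of edgeR with Benjamini-Hochberg adjustment over all genes tested and a threshold of 0.05.

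Iigp1 was low in MG throughout. Its values were 1.12, 2.62, 2.82 and 3.69 CPM in the PFF + VH hashtags and 0, 0.31, 0, 0.06 and 0.54 CPM in the PFF + AZD1480 hashtags, from 168 and 10 UMIs in all. Every AZD1480 value lay under every VH value, the nearest being 0.54 and 1.12. The log2 fold change was -4.09 (SE 0.59, edgeR adjusted p = 0.00046). Iigp1 met the filter on low counts only through the PFF + VH hashtags, the group where it was higher. This p-value has to be read with that limit.

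Irgm1, a regulatory IRG, had 22.6, 20.3, 21.9 and 21.6 CPM in PFF + VH. In PFF + AZD1480 it had 14.7, 11.5, 9.72, 15.2 and 13.6 CPM. The lowest vehicle value was 20.3 and the highest treated value 15.2 CPM, so the groups did not overlap. The log2 fold change was -0.78 (SE 0.11, edgeR adjusted p = 0.00039).

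Igtp had 20.6, 21.1, 22.8 and 21.0 CPM in PFF + VH and 16.5, 17.7, 15.04, 17.9 and 17.9 CPM in PFF + AZD1480. These groups were separate too (log2 fold change -0.38, SE 0.07, edgeR adjusted p = 0.0022). Irgm2, which overlaps Igtp, had 22.1, 21.5, 28.2 and 24.3 CPM in PFF + VH and 21.9, 23.0, 13.4, 23.4 and 22.0 CPM in PFF + AZD1480. Apart from hashtag 3 of PFF + AZD1480, its treated values lay within the range of the vehicle values, and the difference did not pass (log2 fold change -0.25, SE 0.14, edgeR adjusted p = 0.20).

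Among the GBP genes, Gbp5 was the most abundant, as it was among all 8 in MG. It had 65.6, 89.8, 104 and 87.2 CPM in PFF + VH and 57.0, 66.9, 54.4, 60.3 and 65.6 CPM in PFF + AZD1480. The groups overlapped only through VH hashtag 1, which lay under AZD1480 hashtags 2 and 5 (by less than the last digit given for hashtag 5). The log2 fold change was -0.57 (SE 0.12, edgeR adjusted p = 0.0037).

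Gbp7 had 35.7, 30.9, 43.5 and 34.5 CPM in PFF + VH and 25.8, 26.0, 18.3, 29.7 and 24.8 CPM in PFF + AZD1480. Its groups came within 29.7 and 30.9 CPM of each other and did not overlap (log2 fold change -0.57, SE 0.12, edgeR adjusted p = 0.0049). With cells thinned to 1000 UMIs each, Gbp7 fell by 0.40 on the log2 scale and no longer passed (adjusted p = 0.10, edgeR). Gbp2 was lower and separate, with 10.1 to 13.2 CPM in PFF + VH and 7.23 to 9.71 CPM in PFF + AZD1480 (log2 fold change -0.54, SE 0.12, edgeR adjusted p = 0.0055). Gbp3 had 8.89 to 10.6 CPM and 7.73 to 9.31 CPM, which overlapped, and lay near the threshold (log2 fold change -0.25, SE 0.09, edgeR adjusted p = 0.057). It passed without VH hashtag 1 (adjusted p = 0.041, edgeR). Thinned cells left 4 of the 8 lower, since Iigp1 then had too few counts to be tested.

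In total, 5 of the 8 had every AZD1480 hashtag under every VH hashtag, as did 9.81% of all genes tested. In sums over a class, fewer cells with a transcript and less of it per cell cannot be told apart. Counted by cell over all MG, hashtag or not, Iigp1 had a UMI in 136 of 31617 MG of PFF + VH (233 UMIs). In PFF + AZD1480 these were 10 of 11924 MG (14 UMIs). The VH hashtags rest on the deeper cells of that library: MG with a single hashtag had a median of 2961 UMIs and those with none 1426, while the summed level of the 8 genes was 214 and 216 CPM in them.

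**Figure D1:**
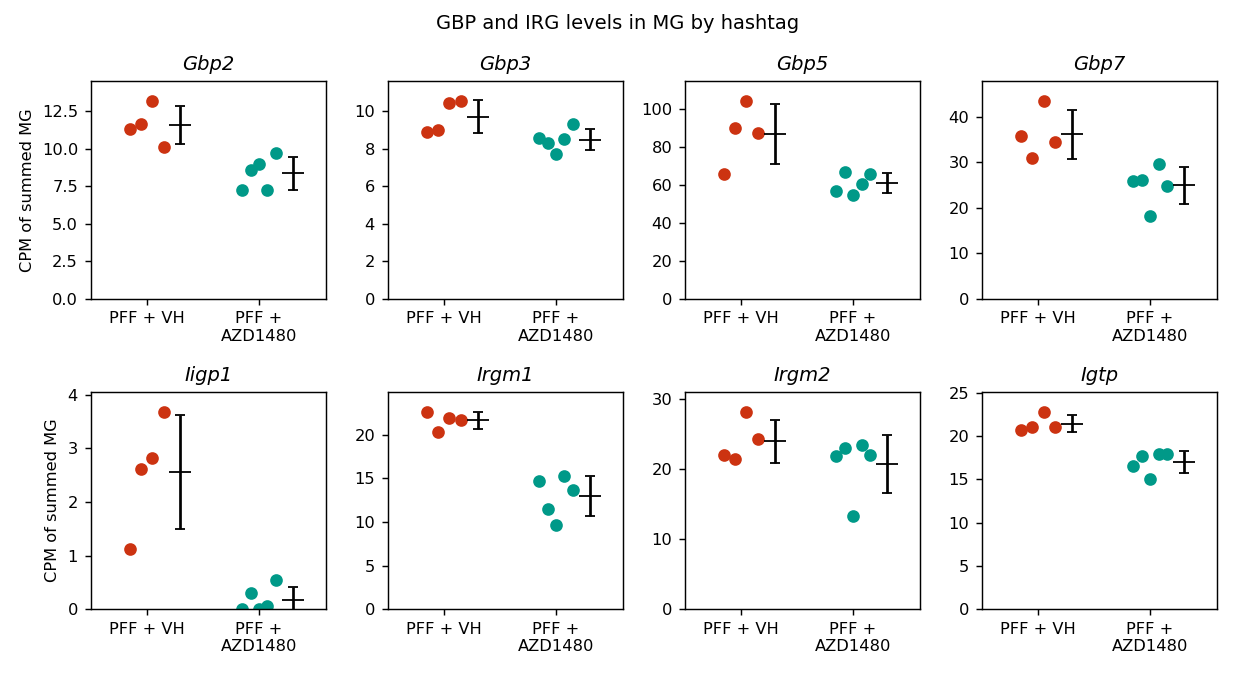
Level of each of the 8 GTPases in MG, as CPM of the summed MG, for the 4 PFF + VH hashtags (red) and the 5 PFF + AZD1480 hashtags (green). Points are hashtags, the bar to their right is the mean ± SD, and each panel has its own axis from 0. The groups are separate for Gbp2, Gbp7, Iigp1, Irgm1 and Igtp, and Irgm2 has 1 treated hashtag at 13.4 CPM, under the rest.

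The rest of the pathway did not move as a block in MG. Ifngr1, the ligand-binding receptor chain, was slightly higher with AZD1480 (358 ± 18.9 CPM in PFF + VH, SD, n = 4, and 443 ± 23.2 CPM in PFF + AZD1480, n = 5, log2 fold change 0.26, edgeR adjusted p = 0.0029). Ifngr2, Jak1 and Jak2 had log2 fold changes of 0.06, -0.07 and 0.14 and did not pass. Stat2 (log2 fold change -0.72), Irf9 (-0.86) and Socs1, a feedback inhibitor of JAKs (-0.84), were lower. Irf1, an interferon-induced transcription factor, had a log2 fold change of -0.29 and did not pass (adjusted p = 0.092).

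Of other known targets of IFN-γ, 7 of 11 were lower, namely Ciita (log2 fold change -1.03), the switch for MHC class II genes, Nlrc5 (-0.85), Psmb9 (-0.63), Tap1 (-0.57), B2m (-0.48), Psmb8 (-0.48) and Cxcl10 (-0.47). Of 14 further GBP and IRG family genes 9 could be tested, and 4 were lower, namely Gbp6 (-3.18), Ifi47 (-2.81), F830016B08Rik (-1.85) and Gm4951 (-1.80). Gbp8 was higher (1.91), and its gene overlaps Gbp4 and Gbp9 on the same strand. All 11 type I interferon-stimulated genes tested were lower, with a median log2 fold change of -2.20, against -0.48 for the other IFN-γ targets and -0.55 for the 8 GTPases. The type I genes were Rsad2 (-2.77), Ifit3b (-2.55), Ifit3 (-2.40), Ifit1 (-2.38), Cmpk2 (-2.31), Oasl1 (-2.20), Ifit2 (-2.07), Oasl2 (-1.96), Usp18 (-1.92), Irf7 (-1.79) and Isg15 (-1.67). These medians describe the lists, and their differences were not tested.

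**Figure D2:**
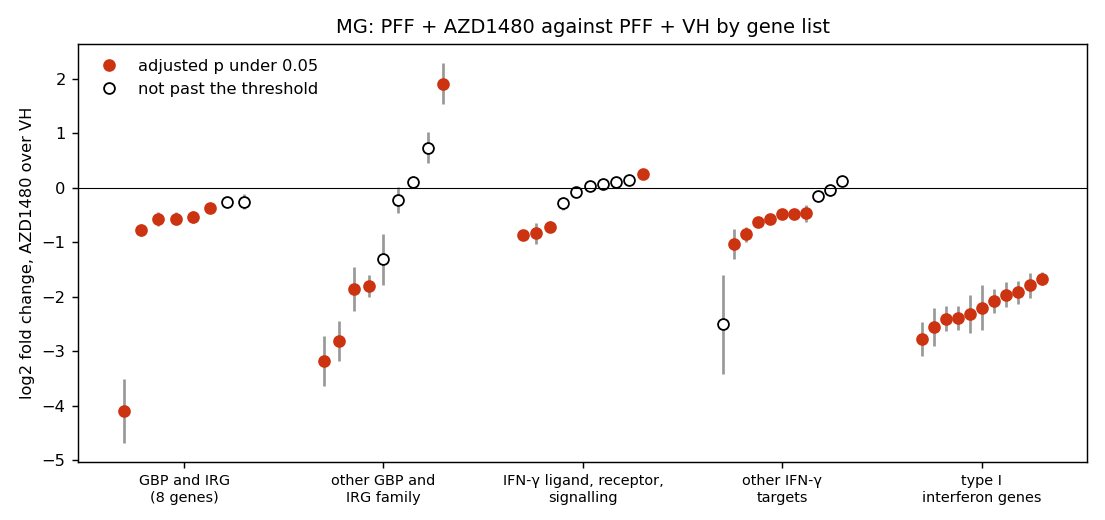
Log2 fold change of single genes in MG, PFF + AZD1480 over PFF + VH, with SE bars, for 5 gene lists. Filled points passed the test, open points did not. Iigp1, at -4.09 and from few UMIs, lies under all genes drawn. The other 7 GTPases lie between -0.78 and -0.25, and the 11 type I interferon genes all lie under -1.6.

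MG that carried type I interferon genes held far more of these GTPases. MG were called ISG-high when, after thinning to 1000 UMIs, at least 3 of 11 listed type I interferon-stimulated genes had a UMI. No GTPase was used for the call. They were 0.691% of the MG deep enough to thin in PFF + VH, 0.354% in PBS, 0.272% in monomer and 0.197% in PFF + AZD1480. In PFF + VH, where each of the 4 hashtags had 26 to 43 such cells, the ISG-high MG were compared with the other MG of the same hashtag. All 8 GTPases were higher, in a fit in which 2.77% of 12556 genes passed as higher and 1.75% as lower. The median log2 fold change was 2.64 over the 8 and -0.15 over all genes.

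Iigp1 rose most. It had 47.2, 88.1, 113 and 163 CPM in ISG-high MG and 0.77, 1.84, 0.98 and 1.86 CPM in other MG of the same hashtags. Its lowest ISG-high value, 47.2 CPM, was far above the highest value of other MG, 1.86 CPM (log2 fold change 6.19, SE 0.50, edgeR adjusted p = 4.38e-33).

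All 3 regulatory IRG genes were higher as well. Irgm1 had 208, 125, 252 and 190 CPM against 19.2 to 21.1 CPM (log2 fold change 3.23, SE 0.25), and Igtp had 217, 154, 164 and 145 CPM against 19.0 to 21.5 CPM (3.03, SE 0.26). Irgm2 had 66.1, 80.7, 296 and 128 CPM against 21.0 to 25.1 CPM (2.55, SE 0.27). In all 3, each ISG-high value lay above each value of other MG, and edgeR adjusted p was at most 3.11e-18. The ISG-high values of Irgm2 ran from 66.1 to 296 CPM, and its SE and p-value may not reflect the full spread of the hashtags.

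The GBP genes passed the test too. Gbp2 had 113, 29.4, 145 and 39.7 CPM in ISG-high MG against 9.72 to 11.8 CPM (log2 fold change 2.73, SE 0.38), and Gbp3 had 28.3 to 52.9 CPM against 8.67 to 10.2 CPM (2.09, SE 0.46). Gbp7 had 151, 36.7, 201 and 70.5 CPM against 30.7 to 41.8 CPM (1.55, SE 0.27, edgeR adjusted p = 5.60e-07), and hashtag 2 of the ISG-high MG was within the range of other MG. The SEs of Gbp2 and Gbp7, and the p-value of Gbp7, may not reflect the full spread of these hashtags. Gbp5 was the exception in direction: it had 190.8, 730 and 331 CPM in hashtags 2 to 4 but 9.44 CPM, from 1 UMI, in hashtag 1, where other MG had 65.5 CPM. Its log2 fold change was 1.69 (SE 0.19, edgeR adjusted p = 9.70e-17). This SE and p-value do not reflect the spread of the 4 hashtags, 1 of which went the other way. In PFF + VH, 1 cell held 20.3% of all Gbp5 UMIs of ISG-high MG. The call for Gbp5 was lost with DESeq2 (adjusted p = 0.86) and with robust dispersions in edgeR (adjusted p = 0.52). With cells thinned to 1000 UMIs 5 of the 8 passed, and Gbp3, Gbp5 and Gbp7 did not (edgeR adjusted p = 0.95, 0.098 and 0.055). The log2 fold change of Gbp3 then fell to 0.41.

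Stat2 (log2 fold change 2.80), Socs1 (2.23), Irf1 (0.71) and Irf8 (0.49) were higher in ISG-high MG as well, and Ifngr1 was lower (-0.62). Of 11 further GBP and IRG family genes tested 6 were higher, among them Gm4951, an IRG gene (234 CPM in ISG-high and 6.55 CPM in other MG, means over 4 hashtags, log2 fold change 5.12). Of 11 other IFN-γ targets 8 were higher, Cxcl9 and Cxcl10 most (4.01, from 12 UMIs in 2 of 4 hashtags, and 3.76). All 11 genes used for the call were higher, which the call itself fixes.

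**Figure D3:**
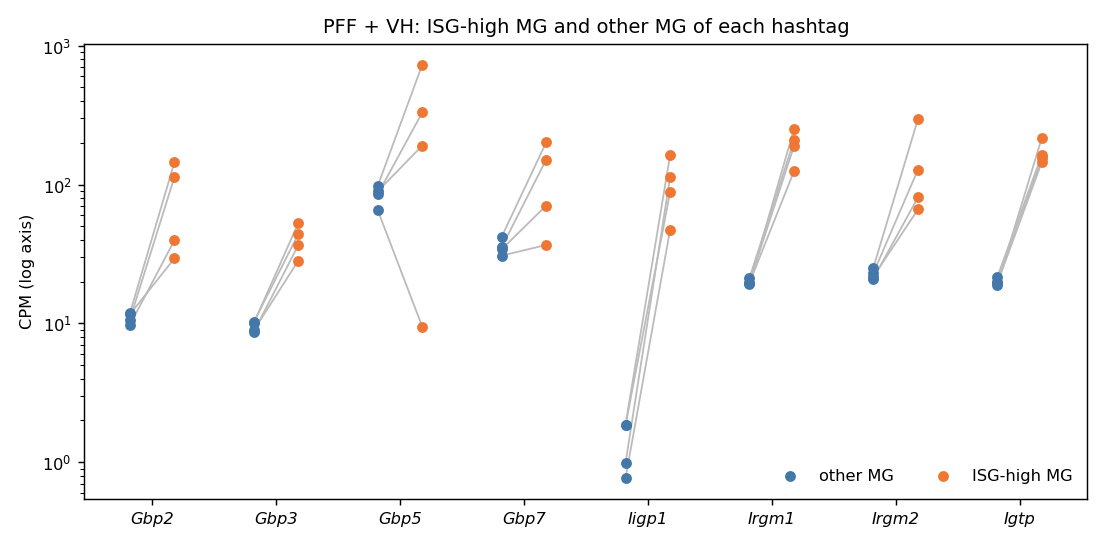
Level of each GTPase in ISG-high MG (orange) and other MG (blue) of PFF + VH, as CPM on a log axis, with grey lines joining the cells of the same hashtag. All lines rise but that of Gbp5 in hashtag 1, which falls from 65.5 to 9.44 CPM, and the lines of Iigp1 are the steepest.

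The few ISG-high MG held a small part of the GTPase RNA of MG, with Iigp1 the exception. Over the 8 genes they held 2.30% (PBS), 1.92% (monomer), 4.15% (PFF + VH) and 0.843% (PFF + AZD1480) of the UMIs of the MG that could be thinned. For Gbp5 the shares were 1.20%, 0.705%, 2.89% and 0.291%. For Iigp1 they were 19.8%, 37.2%, 34.5% and 42.9%, the last being 6 of 14 UMIs. Since the ISG-high share of MG was lower with AZD1480, the comparison of treatments was repeated without these cells. This repeat kept the MG too shallow to thin and those with fewer than 3 of the listed genes. It therefore cannot show what interferon-responding MG add to the difference. The same 6 genes were lower, with Iigp1 at a log2 fold change of -3.79, Irgm1 at -0.67, Gbp7 at -0.55, Gbp5 at -0.52, Gbp2 at -0.45 and Igtp at -0.29 (edgeR adjusted p between 0.00082 and 0.011). With ISG-high cells left out, Iigp1 cannot have more UMIs under AZD1480 than in the full comparison. The limit given there for the filter on low counts therefore holds for its p-value here as well.

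PBS and monomer can be set beside these libraries only as 1 value each, here over all MG of a library, hashtag or not, with exact Poisson 95% intervals that cover counting error only. The summed level of the 8 genes in MG was 274 CPM (271 to 277) in PBS, 239 (236 to 242) in monomer, 212 (210 to 215) in PFF + VH and 155 (152 to 157) in PFF + AZD1480. These intervals do not meet, but with 1 library a condition there is no replicate check. Gbp5 gave the most UMIs to each sum. The median over the 8 genes was 21.5, 19.9, 21.1 and 15.3 CPM in the same order, with PFF + VH above monomer. For these ratios, a mean level of 10 CPM or more over the 4 libraries was required, and genes were called lower or higher at a ratio of at least 1.5, and 7 of the GTPases, all but Iigp1, reached that level in MG.

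Monomer over PBS called none of the 7 lower, and 0.334% of all genes were called lower. PFF + VH over monomer also called none lower (0.406% of all genes), with ratios from 0.71 for Gbp7 to 1.15 for Irgm1. Gbp7 went down over the libraries, from 59.4 CPM in PBS and 49.5 in monomer to 35.2 in PFF + VH and 25.8 in PFF + AZD1480, and Irgm2 from 36.6 and 31.5 to 23.6 and 21.7 CPM. Igtp lay at 21.7, 21.2 and 21.1 CPM in the first 3 and at 17.1 CPM in PFF + AZD1480. PFF + AZD1480 over monomer called Gbp5 (ratio 0.626) and Gbp7 (0.520) lower, where 0.978% of all genes were called lower. Iigp1, under the level for a call, had 1.78, 1.69, 2.28 and 0.173 CPM in the 4 libraries, the last from 14 UMIs.

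**Figure D4:**
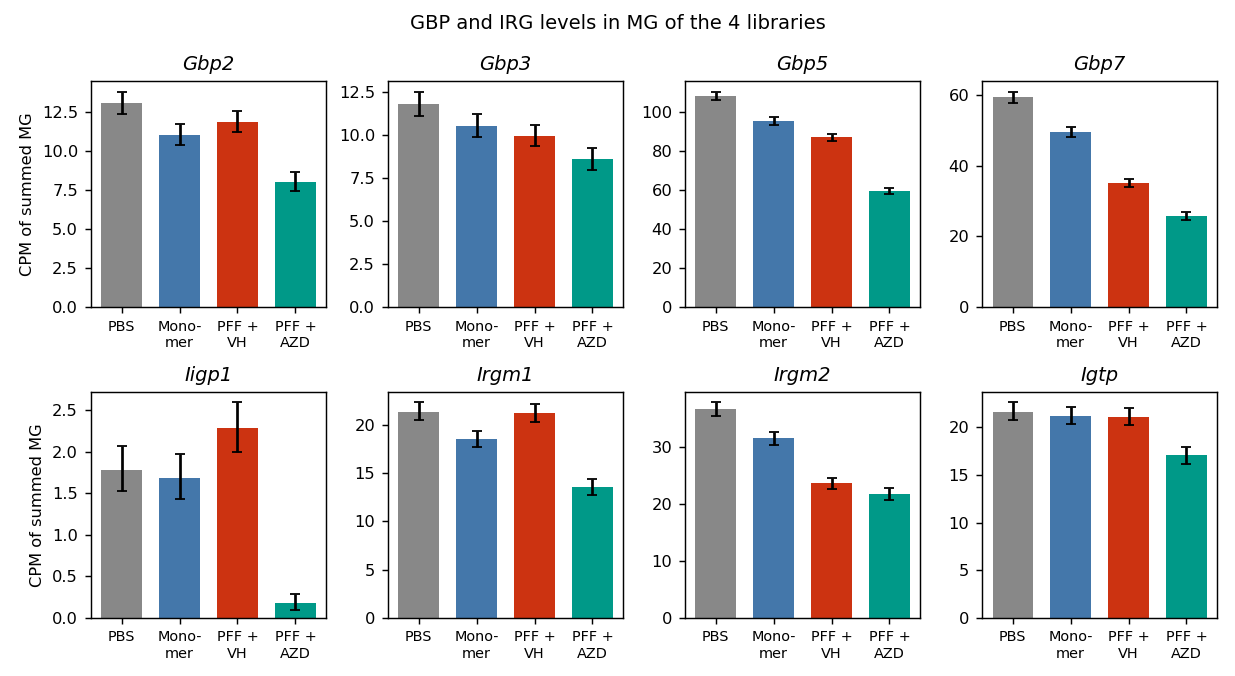
Level of each GTPase in all MG of the 4 libraries, as CPM with exact Poisson 95% intervals, which cover counting error only. Each bar is 1 library, and each panel has its own axis from 0. PFF + AZD1480 is lowest for all 8, and PBS is highest for all but Iigp1, which is highest in PFF + VH.

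The cell classes differed in which GTPase they held most. Counts of 3' UMIs do not grow with transcript length, but other differences between genes in how reads are captured and assigned were not measured. Orders of genes within a class are therefore descriptions of UMI levels, and the spans of Igtp and Irgm2 overlap. In MG, Gbp5 led with 88.7 CPM (87.8 to 89.7, all libraries pooled), followed by Gbp7 at 43.0 and Irgm2 at 28.5 CPM, and Iigp1 was last at 1.55 CPM. BAM had Gbp7 (91.5 CPM, 82.4 to 101) first in the pool and in each library, with Iigp1 at 46.6 CPM (40.2 to 53.9) and Gbp5 at 31.5 CPM. Iigp1 came next after Gbp7 in BAM of monomer and PFF + VH, but Irgm1 did in PBS (43.1 against 40.7 CPM) and Gbp5 in PFF + AZD1480 (33.4 against 26.7 CPM), with intervals that overlap. In T-like cells Gbp7 (81.7 CPM pooled) was first in 3 libraries, and in PFF + AZD1480 it had 36.6 CPM against 41.9 CPM each of Iigp1 and Igtp. NK-like cells had Gbp7 first in each library (83.4 CPM pooled). Iigp1 was at 0 UMIs in NK-like cells of all 4 libraries, where 3 UMIs would be 7.98, 8.27, 14.2 and 52.0 CPM, while T-like cells had 29.3 CPM (21.6 to 38.8). Few cells held the Iigp1 UMIs, which the intervals treat as independent: 3 T-like cells held 85.7% of them in monomer and 81.2% in PFF + AZD1480, and 3 BAM held 31.4% in PBS and 54.2% to 59.4% in the other libraries.

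Over classes, Gbp5 was highest in DC (174 CPM) and MG. BAM, NK-like, neutrophil-like (Neu), T-like, Mono and B-like (B) cells followed from 31.5 to 7.42 CPM, each with an interval that overlapped the next, though those of BAM and B do not meet. This pooled order is not that of each library: Neu had 76.3 CPM of Gbp5 in PBS, from 24 of its 32 UMIs and above BAM there (31.9 CPM), and 23.1, 11.97 and 7.45 CPM in the others, and Mono had 45.8 CPM in PBS, from 10 of 15 UMIs, and 16.2, 13.2 and 0 CPM in the others. DC were only 23 cells, and 1 cell of the PBS library held most of their GTPase UMIs. Iigp1 was highest in DC (49.8 CPM) and BAM (46.6 CPM), whose intervals overlap, then in Mono (29.6) and T-like cells (29.3), whose intervals overlap, and lowest where it was seen in Neu (1.90, from 2 UMIs) and MG. Pooled Gbp7 in BAM, NK-like and T-like cells lay within overlapping intervals (91.5, 83.4 and 81.7 CPM), as did MG and Neu (43.0 and 42.7 CPM). The libraries differed, and PBS carried much of the pooled values of Neu and Mono. Gbp7 had 98.5 CPM in Neu and 87.0 CPM in Mono of PBS, against 59.4 CPM in MG there, and 12.4 to 57.8 and 7.14 to 17.6 CPM in those classes of the other libraries. Iigp1 had 77.9, 0, 17.6 and 0 CPM in Mono of PBS, monomer, PFF + VH and PFF + AZD1480, from 17, 0, 4 and 0 UMIs, and 3 cells held 94.1% of those in PBS. In T-like cells it had 28.5, 29.0, 0 and 41.9 CPM, and in BAM 40.7, 69.9, 64.1 and 26.7 CPM. The number of UMIs from free RNA in these classes was not measured.

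Between libraries, the rarer classes rest on few cells. BAM had 290, 275, 331 and 206 CPM over the 8 genes in PBS, monomer, PFF + VH and PFF + AZD1480. In MM as a whole, the place of PFF + VH above monomer depends on the marker share: they had 282 and 239 CPM, and 182 and 208 CPM at a share of at least 0.75. T-like cells had 357, 346, 118 and 264 CPM, where PFF + VH was 47 cells with 17 UMIs, and NK-like cells 266, 223, 204 and 121 CPM. Mono stood out in PBS, with 715 CPM (607 to 836) against 113, 140 and 7.14 CPM, but this was 25 cells, and 3 of them held 50.6% of the UMIs. DC had 820 CPM in PBS, from 9 cells of which 1 held 81.3% of the UMIs, and no UMI in the 8, 1 and 5 cells of the other libraries. For MM as a whole, where Mono and DC gave 156 and 75 of the 595 UMIs in PBS, monomer over PBS called 6 of 8 GTPases lower (9.76% of all genes), from Gbp2 (ratio 0.338) to Gbp7 (0.658), and not Iigp1 or Irgm2. Within BAM, which are 229 of 263 MM in PBS and 155 of 181 in monomer, the intervals of all 6 overlap between both libraries. Irgm1 went from 43.1 to 28.4 CPM, Igtp from 25.5 to 15.4, Gbp7 from 100.5 to 73.4 and Gbp5 from 31.9 to 23.7 CPM from PBS to monomer, while Gbp2 and Gbp3 went from 12.8 CPM each to 17.8 and 18.9 CPM. PFF + VH over monomer called only Gbp7 higher (ratio 1.68, 10.1% of all genes, not recomputed at a share of 0.75), and PFF + AZD1480 over monomer called 4 lower, Iigp1 (0.402), Gbp3 (0.453), Gbp2 (0.494) and Irgm1 (0.571), where 10.3% of all genes were called.

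**Figure D5:**
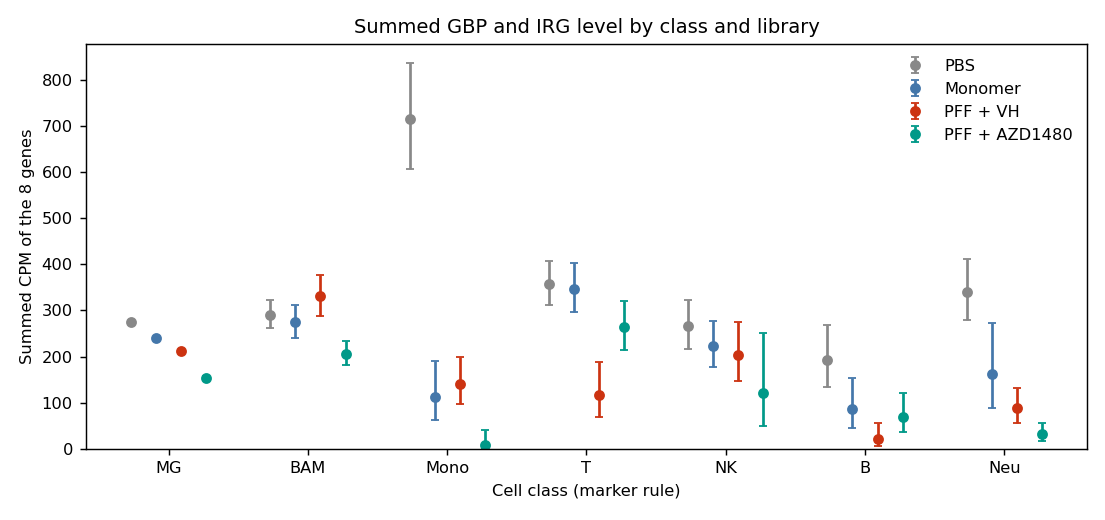
Summed level of the 8 GTPases, as CPM of the summed class, in 7 cell classes of the 4 libraries, with exact Poisson 95% intervals for counting error only. Points are libraries. MG intervals are narrower than the points, and the highest point, Mono of PBS at 715 CPM, is 25 cells.

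MM and MG were compared within hashtags, where 8 had at least 10 MM (27 to 83 cells). Gbp5 was lower in MM, Gbp7 and Iigp1 were higher, and the other 5 did not pass. In this fit 13.3% of 12951 genes passed as higher and 18.2% as lower. Gbp5 had 24.5 ± 16.5 CPM in MM and 74.6 ± 16.9 CPM in MG (SD, n = 8 hashtags) and was lower in MM in all 8 (log2 fold change -1.60, SE 0.24, edgeR adjusted p = 4.09e-09). Gbp7 had 72.8 ± 33.9 and 31.3 ± 6.34 CPM and was higher in all 8 (1.14, SE 0.20, edgeR adjusted p = 8.82e-07), but with cells thinned to 1000 UMIs its log2 fold change was 0.67 and did not pass (adjusted p = 0.22, edgeR).

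Iigp1 differed most between MM and MG. It had 67.8, 53.3, 43.9 and 0 CPM in MM of the VH hashtags and 5.14, 0, 86.6 and 0 CPM in MM of AZD1480 hashtags 1, 2, 4 and 5, against at most 3.69 CPM in MG. It was higher in MM in 5 of 8 hashtags, and in the other 3 MM were at 0, under MG (log2 fold change 4.66, SE 0.57, edgeR adjusted p = 1.13e-12). This SE and p-value do not reflect the spread of the 8 hashtags, 3 of which went the other way. Over all MM of a library, 3 cells held 53.2% of the Iigp1 UMIs in PFF + VH and 59.4% in PFF + AZD1480. Without AZD1480 hashtag 4 the log2 fold change was 3.83 and still passed (adjusted p = 7.22e-10, edgeR). The further IRG genes Ifi47 (log2 fold change 4.34), Tgtp2 (4.01), Gm4951 (3.66) and F830016B08Rik (3.64), and Gbp6 (3.15), were higher in MM as well, and Irgq, an IRG-related gene, was lower (-2.24, from 2 UMIs in MM). Ifngr1 (-0.52), Ifngr2 (-0.91), Jak1 (-0.87), Irf1 (-1.40) and Irf8 (-0.71) were lower. Of other IFN-γ targets Ciita (4.38), Psmb9 (0.92) and Psmb8 (0.58) were higher, and Cd274 (-2.67), Wars (-1.22), Cxcl10 (-0.71) and B2m (-0.39) were lower, of 11 tested. Of 11 type I genes 8 were higher, namely Oasl1 (2.54), Cmpk2 (2.15), Oasl2 (2.07), Irf7 (1.93), Ifit1 (1.52), Usp18 (1.44), Ifit3 (1.21) and Isg15 (0.64).

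TNK and MG shared 5 hashtags with at least 10 TNK (14 to 23 cells). Gbp5 was lower in TNK in all 5, with 27.0 ± 12.3 against 81.4 ± 18.2 CPM (SD, n = 5), from 9 UMIs in TNK (log2 fold change -2.10, SE 0.44, edgeR adjusted p = 1.18e-05). No other GTPase passed in edgeR or DESeq2, where 19.4% of all genes passed as lower and 8.91% as higher (4669 genes had an unadjusted p under 0.05 in either direction). The Gbp5 call was lost with thinned cells (edgeR adjusted p = 0.052) and with a marker share of at least 0.75 (0.16, edgeR). Iigp1 in TNK came from 4 UMIs, all in AZD1480 hashtag 4 (log2 fold change 2.33, SE 1.08, edgeR adjusted p = 0.094), and passed with MULTIseqDemux hashtag calls (3.73, edgeR adjusted p = 0.0030) and with hashtag values centred within cells (4.06, edgeR adjusted p = 3.26e-08). In the other 4 hashtags TNK had no Iigp1 UMI. Of 9 further GBP and IRG family genes tested, 5 were higher in TNK and 4 did not pass. Those higher were Ifi47 (5.24), Gbp4 (4.93), Tgtp2 (4.54), Gbp9 (3.57) and Gbp8 (3.42), of which Gbp4, Gbp8 and Gbp9 overlap on the same strand.

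In MM, a treatment effect on the GTPases was not detectable at this depth. Only Gbp7 had enough counts to be tested over 4 VH and 4 AZD1480 hashtags, since AZD1480 hashtag 3 had 9 MM. It had 81.4, 146, 61.5 and 61.1 CPM in PFF + VH and 30.8, 48.5, 74.8 and 78.4 CPM in PFF + AZD1480. The groups overlapped (log2 fold change -0.74, SE 0.36, edgeR adjusted p = 0.53), in a fit in which edgeR called 0.165% of 3025 genes, 5 in all, and 288 had an unadjusted p under 0.05. Without VH hashtag 2 the log2 fold change was -0.29. The other 7 had 5 to 30 UMIs in the VH and 6 to 23 in the AZD1480 hashtags together. A test of whether the AZD1480 effect differed between MM and MG called 0 of the 8 in edgeR and in DESeq2, where 0.486% of 12951 genes were called and 803 had an unadjusted p under 0.05. Iigp1 came nearest (difference of log2 fold changes 2.60, SE 0.97, edgeR adjusted p = 0.45, and -0.90 without AZD1480 hashtag 4). TNK could not be compared between treatments, since only 1 AZD1480 hashtag had at least 10 of them.

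Ifng, the ligand, had its highest CPM in T-like or NK-like cells in each library. T-like cells had 46.0, 85.0, 34.6 and 96.8 CPM in PBS, monomer, PFF + VH and PFF + AZD1480, and NK-like cells had 74.5, 159.9, 56.9 and 17.3 CPM, the last from 1 UMI. Cells of no class had 22.0, 20.4, 10.03 and 4.84 CPM, from 30, 38, 30 and 9 UMIs. Mono of monomer had 40.4 CPM, from 5 UMIs in 18 cells, B had 1 UMI in all, and MG had 0.117 to 0.528 CPM. Within hashtags, Ifng was higher in TNK than in MG (log2 fold change 7.0, SE 0.77, edgeR adjusted p = 2.78e-18). Between PBS and monomer, the 95% intervals of Ifng overlapped in T-like cells (30.8 to 66.0 and 61.0 to 115 CPM). In NK-like cells they did not (49.5 to 108 and 121 to 207 CPM). How Ifng relates to the GTPases of MG was not tested.

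Over 24 points of a class in a library with at least 20 cells each, the genes most like the summed level of the 8 GTPases were Fyb (Spearman's rho 0.74), Ripk1 (0.69), Zfp36l2 (0.68), Epsti1 (0.67) and Ifnar1 (0.66), among 3671 genes whose mean level over these points was 50 CPM or more. Points of one library share its depth and points of one class its cells, so these are descriptions without a test.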

How the data were processed

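The authors made 4 libraries with the 10x 3' v3.1 kit and Cell Ranger on mm10, and deposited raw UMI counts for each gene and cell barcode, with hashtag counts as the last features of both PFF libraries. Per the file headers this was Cell Ranger 7.0.1, while the study's methods name another release. Total UMIs were 99658216 to 116440449 per library. After the study's methods, cells needed 500 to 15000 UMIs, 250 to 5000 genes and no more than 10% of mitochondrial UMIs. Seurat 5.3.0 in R 4.3.3 assigned hashtags (HTODemux, quantile 0.99). Cells with several hashtags entered no test, and no other doublet call was made. Classes were set by 9 marker lists. Counts were summed per class and hashtag (at least 10 cells) and tested with edgeR 4.0.16 (glmQLFTest, TMM, filterByExpr, Benjamini-Hochberg, threshold 0.05), with the hashtag as a block where cells of the same hashtag were compared. Levels per library have exact Poisson 95% intervals. Scripts were tested on simulated data. Alternatives were DESeq2 1.42.0, other scalings, filters, hashtag calls and marker limits, thinning to 1000 UMIs and left-out hashtags. Robust dispersions, bias-adjusted deviances, both together, and leaving out MG with 3 markers of another class were chosen after seeing the data. The 4 combinations of dispersion and deviance settings were tried on simulated data and on these genes, with the p-values of these genes in view, and the default of edgeR was then kept as planned. The 8 genes, the 5 gene lists and the marker lists were chosen with earlier results of these data known. All 8 genes are named, and of the other lists those past the threshold between treatments in MG or between MM and MG, with Ifng, its receptor chains, Jak1, Jak2, Irf1 and Socs1, and the 5 genes most like the summed level. A gene of the signalling list is not reported here. Genes named only for TNK were chosen after their values were seen. Python 3.11.15 (numpy 2.4.6, scipy 1.17.1, pandas 2.3.3, matplotlib 3.10.9) was used for sums, sequences and plots.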

Additional observations from a re-analysis of the deposited data

Results flagged for a closer look

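Of 55 groups of 4 or 5 hashtags, 4 held a hashtag far from the others, by the gap to its neighbour relative to the whole range, and chance gives about 1 in 20. Irgm2 in MG was 13.4 CPM (128 UMIs) in AZD1480 hashtag 3 and 21.9 to 23.4 CPM in the other 4 hashtags of that group. In MM, AZD1480 hashtag 4 had 31.5 CPM of Gbp2 (8 UMIs) and 86.6 CPM of Iigp1 (22 UMIs), against 0 to 5.14 CPM of either gene in the other 3. Irgm1 in MM was at 0 UMIs (0 CPM) in VH hashtag 4 and at 24.9 to 27.1 CPM in the other 3.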

How the results depend on the processing

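In MG, the count of GTPases lower with AZD1480 was 6 or 7 under the alternatives run, except 4 with thinned cells, where Gbp7 lost its call (-0.40) and Iigp1 could not be tested. None was higher. Gbp3 gained a call without VH hashtag 1 (-0.30) and without MG with 3 markers of another class (-0.26). The hashtag numbers do not pair the samples (correlations of deviations -0.084, 0.343, 0.104 and 0.353 in MG and -0.175, 0.071 and 0.102 in MM). With the hashtag number as a replicate block the count stayed at 6, Gbp7 at -0.56 (edgeR adjusted p = 0.034), and leaving out the block of MM or TNK against MG changed no count. For MM against MG, genes that did not pass changed direction: Gbp2 with RLE scaling (0.00026), MULTIseqDemux (0.0053) or at least 4 markers (0.10), Gbp3 with a marker share of 0.75 (-0.50), Irgm1 with thinned cells (0.044), and Igtp with no filter (-0.018), hashtag values centred within cells (-0.023), thinned cells (-0.26) or a marker share of 0.75 (-0.29). Thinned cells left 1 GTPase higher in MM, by the loss of Gbp7 (0.67). Leaving out 1 hashtag gave ranges of -1.10 to 0.10 for Gbp2, -0.015 to 0.39 for Gbp3 and -0.17 to 0.18 for Igtp. For TNK against MG, thinned cells and a marker share of 0.75 left 0 lower (Gbp5 -1.70 and -2.19), MULTIseqDemux and values centred within cells called 1 higher (Iigp1), Iigp1 was -7.58 with a marker share of 0.75, and it ranged from -7.43 to 3.06 without 1 hashtag. In ISG-high MG, thinned cells left 5 higher, and 7 were higher with DESeq2 and with robust dispersions, with or without bias-adjusted deviances, since Gbp5 was lost (adjusted p = 0.86 in DESeq2 and 0.52 and 0.42 in edgeR). Without the block all 8 stayed higher, with a larger p for Gbp5 (adjusted p = 0.0032, edgeR). For Iigp1, the difference of the AZD1480 effect between MM and MG ranged from -0.90 to 3.64 without 1 hashtag, while MM against MG itself stayed between 3.83 and 5.21. Summed levels per library moved beyond counting error as follows. In MG, thinned cells gave 263, 225, 208 and 148 CPM (PBS, monomer, PFF + VH, PFF + AZD1480), leaving out nuclear, rRNA-overlapping and mitochondrial genes gave 284, 248, 222 and 161 CPM, and no filter on cells gave 282 CPM in PBS. In MM, thinned cells gave 319 CPM in PBS and 185 CPM in monomer, and a marker share of 0.75 gave 449, 208 and 182 CPM in PBS, monomer and PFF + VH. In TNK, thinned cells gave 402 CPM in PBS, and a marker share of 0.75 gave 218 and 302 CPM in PFF + VH and PFF + AZD1480. The cause of these changes was not tested. Counts over all genes moved by over 1.5 times as well. They were 3654 (1716 thinned) for treatments in MG, 4081 (2250 thinned) for MM against MG, 3651 (2174 thinned, 1034 with a marker share of 0.75) for TNK against MG, 568 (360 with DESeq2, 229 with MULTIseqDemux, 299 thinned, 356 without VH hashtag 4) for ISG-high MG, and 63 (17 with DESeq2, 106 with values centred within cells, 5 thinned, 21 with a marker share of 0.75, 35 with both added settings of edgeR, 39 without VH hashtag 2) for the difference between MM and MG. For treatments in MM they were 5, against 15 with DESeq2, 78 without a filter, 23 with values centred within cells, 2 with at least 4 markers, 15 and 14 with robust dispersions without and with bias-adjusted deviances, 10 with the replicate block, and 3 to 20 without 1 hashtag. MM, TNK and ISG-high MG rest on 14 to 83 cells per hashtag, and the comparison of treatments in TNK was not run for want of cells.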
